A study of Mus musculus with 8 samples.

Results

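The comparison described is between blood Ly6C-low monocytes (MCs) of 2 mouse models of diabetes, T2DM minus T1DM, over all 16486 genes of the deposited expression values. It rests on 2 of the 8 RNA-Seq libraries of the series, 1 on each side, so each value is a log2 difference between 2 libraries and carries no test, no p-value and no replicate error. T1DM mice were male C57/BL6 mice made diabetic by intraperitoneal streptozotocin (STZ), a toxin that kills the insulin-producing beta cells, at 50 mg/kg per day on 5 days in a row from 8 weeks of age. T2DM mice were male db/db mice, which are homozygous for a mutation of the leptin receptor gene. CT mice were untreated male C57/BL6 mice. The animals were kept on normal chow and killed at 20 to 22 weeks. CD11b+Ly6G-Ly6C-low cells were sorted from blood, RNA of 5 mice was pooled per group, and both diabetic libraries were run on a HiSeq 4000, while the 2 CT Ly6C-low libraries were run on a NextSeq 500. The strain background of the db/db mice was not given in the sources used here, so diabetes model and strain cannot be told apart.

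Ly6C-low MCs are the nonclassical, patrolling monocytes of the mouse. They crawl along the inner wall of small vessels, clear debris from it, need the nuclear receptor Nr4a1 to survive, and arise in large part from Ly6C-high classical MCs that leave the bone marrow and turn down Ly6c2 and Ccr2. STZ mice lack insulin and are lean, whereas db/db mice cannot sense leptin, overeat, and become obese and insulin resistant. The question that the head-to-head comparison addresses is how the same sorted subset differs between these forms of diabetes.

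A gene was counted as higher or lower in T2DM when its normalised log2 value differed by more than 1, which is 2-fold. By this limit 1202 genes (7.29%) were higher and 1314 genes (7.97%) were lower, and the median difference over all genes was 0.00027. Most of these genes had low values, and 65.0% of them had a mean log2 value under 2. Among the 1654 genes with a mean under 0, 40.6% differed by 2-fold, but so did 33.8% between the 2 CT Ly6C-low libraries. Among the 2450 genes with a mean from 6 to 8 the shares were 2.37% and 0.245%. Of the 5160 genes that had means of 5 or more, 41 (0.795%) were higher and 103 (2.00%) lower in T2DM, 144 together, and 24 differed by 2-fold between the CT libraries. The CT libraries may be repeats of 1 RNA pool, so their gap may not hold the variation between mice. The depth behind a single value is unknown, so differences of genes with low values are given below as values only.

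**Figure D1:**
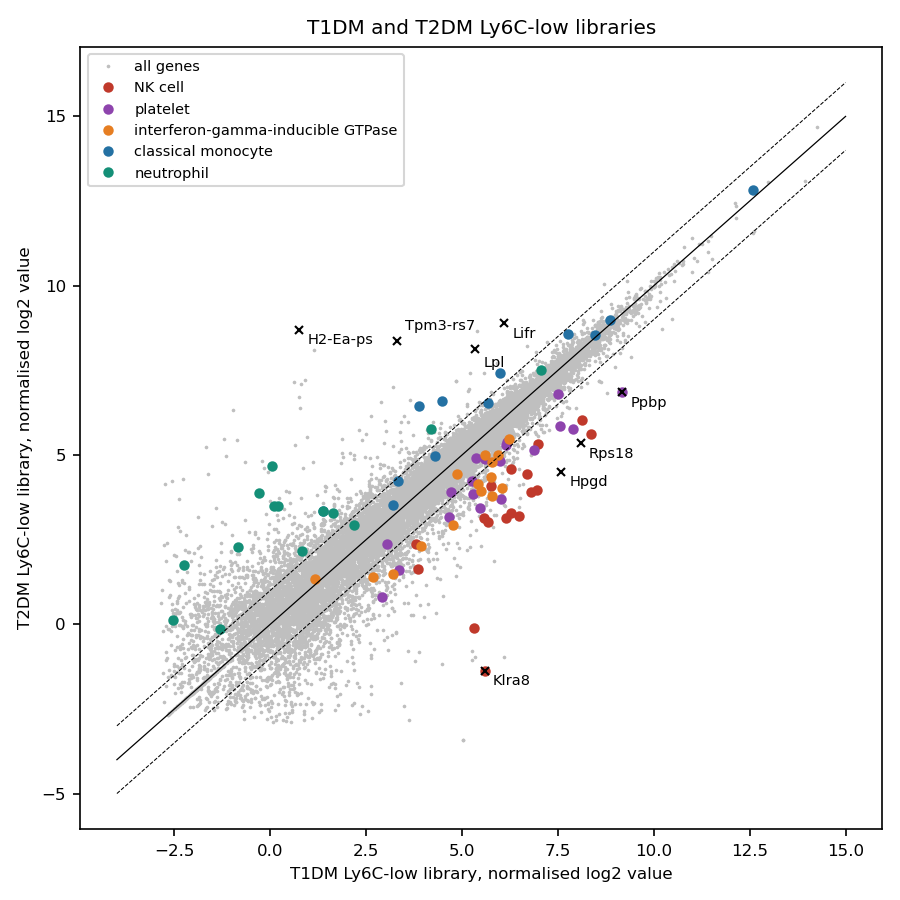
Normalised log2 value of each of the 16486 genes in the T1DM Ly6C-low library (x axis) and in the T2DM Ly6C-low library (y axis), with the members of 5 gene lists coloured and 8 genes marked by a cross. The solid line is equality and the dashed lines are 2-fold differences, and all 17 NK cell genes lie under the lower dashed line.

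The sorted cells carried the markers of their label in both models, but the libraries held B cell markers too. On the linear scale 20 B cell genes summed to 8307 in T1DM and 8823 in T2DM. The nonclassical MC list summed to 5678 and 4730. The B cell gene Ms4a1 was 8.46 and 8.84, and the part of B cell RNA in other values was not tested. Of the 15 nonclassical MC genes, 14 differed by less than 2-fold and the median difference was -0.12. Nr4a1 was 8.21 in T1DM and 8.28 in T2DM, and the fractalkine receptor gene Cx3cr1 was 7.72 and 8.14. The exception was Itgax, which encodes the CD11c integrin, at 7.71 in T1DM and 6.58 in T2DM, with 6.97 and 6.84 in the CT libraries. Spn (CD43) followed at a difference of -0.79 and Itgal (CD11a) at -0.69, whereas Fcgr4, an activating Fc receptor of these cells, was 0.57 and the fatty acid receptor gene Cd36 was 0.66 higher in T2DM. Ly6c2, which encodes the antigen used in the sort, was 3.20 and 3.53 in the Ly6C-low libraries against 8.72 and 8.58 in the Ly6C-high libraries of the same models. Ly6c1 was 0.52 and 0.69, and 46.8% of its 31-base sequences also occur in other genes' transcripts, most of them in Ly6c2.

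Genes of classical MCs were higher in T2DM Ly6C-low MCs. All 12 listed genes had a positive difference, 4 of them above 1 and none below -1, with a median of 0.82 against 0.00027 over all genes. Chil3, a chitinase-like protein of immature and classical MCs, was 3.88 in T1DM, 6.45 in T2DM, and 4.35 and 4.09 in CT. The difference of 2.57 corresponds to 5.92-fold, although 41.5% of the 31-base sequences of Chil3 are shared with other genes, mainly Chil4. Hp, the hemoglobin scavenger haptoglobin, was 4.47 in T1DM, 6.58 in T2DM, and 5.63 and 5.35 in CT. S100a4, a calcium-binding motility protein, was 5.99 in T1DM and 7.42 in T2DM. The T2DM value was the highest of the 4 Ly6C-low libraries for Chil3, Hp and S100a4, and the T1DM value the lowest.

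The fourth gene past 2-fold was the neutrophil collagenase gene Mmp8, at a low 1.37 in T1DM and 3.35 in T2DM, which is also in the neutrophil list. Chil3, Hp and S100a4 are expressed by granulocytes too. The neutrophil list was higher in the same library, with 12 of 14 genes above 1, a median of 2.33 and a summed level of 168 in T1DM and 342 in T2DM, and its part in the classical MC genes was not tested. F13a1 was 0.84, Ccr2, the chemokine receptor for exit from bone marrow, was 0.80, and Mgst1 was 0.67 higher in T2DM. Fn1 (fibronectin), a further classical gene, differed by only 0.11, and Ly6c2 by 0.34. The same list was also higher in the T2DM Ly6C-high library, with 5 of 12 genes above 1 and a median of 0.67. In that subset 1395 genes (8.46%) were above 1 and 1780 genes (10.8%) below -1 over all 16486. Of 19 transcription factor genes of MC fate, 17 differed by less than 2-fold and the median was 0.07. The gene below -1 was Gfi1, at a low 2.71 and -0.73. Cebpa differed by 0.98 and Spi1, which encodes PU.1, by 0.34.

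Some genes of lipid handling were higher in T2DM, and Lpl was among the 15 highest ranked genes. Lpl, the lipase that frees fatty acids from circulating triglyceride, was 5.35 in T1DM and 8.14 in T2DM, a 6.94-fold difference. CT libraries were at 5.60 and 5.71, so T2DM stood alone among the Ly6C-low libraries. In Ly6C-high MCs Lpl was 6.38 in T1DM and 6.27 in T2DM. Olr1 (LOX-1, a receptor for oxidised lipoprotein) was 3.48 in T1DM, 6.14 in T2DM, and 3.56 and 4.89 in CT, and its Ly6C-high values of 4.24 and 4.09 were also close to each other. For both genes the gap between models was thus larger in the Ly6C-low than in the Ly6C-high pair, a contrast without a test. Apoe, the lipoprotein that carries cholesterol from cells, was 8.71 in T1DM and 10.04 in T2DM, both above CT at 7.82 and 7.86. Msr1, the class A scavenger receptor, was 4.42 in T1DM, 5.78 in T2DM and 5.01 and 4.86 in CT.

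These genes stood out from their lists rather than moving with them. Of 17 targets of the liver X receptor (LXR), the sterol-sensing nuclear receptor, 3 were above 1 (Lpl, Apoe and Apoc1), none was below -1, and the median was 0.11. The cholesterol exporters Abca1 and Abcg1 differed by 0.11 and -0.04, and the LXR target Mylip by -0.02. Of 20 genes of lipid uptake, storage and peroxisome proliferator-activated receptor (PPAR) response, Olr1 and Msr1 were above 1, the fatty acid-binding protein gene Fabp4 (-1.23) and the low Vldlr (-1.40) were below -1, and the median was 0.09. Pparg was 5.84 in T1DM and 5.46 in T2DM. A list of lipid-associated macrophage genes had 4 of 13 above 1, which were Lpl, Apoe, Ctsl and Cd63, and its median was 0.24. Trem2 and Gpnmb, which mark such macrophages in fat, were low in both models, at 2.26 and 2.50 for Trem2 and 0.94 and 0.44 for Gpnmb.

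Genes of cholesterol synthesis tended the other way, with a median of -0.38 over 25 genes. Of these, 4 were below -1, among them Cyp51 (-1.34) and Fdft1 (-1.28), and Hsd17b7 alone was above 1 at 1.18. Cyp51, the lanosterol demethylase, was 6.14 in T1DM, 4.80 in T2DM, and 5.39 and 5.48 in CT. The regulator gene Srebf2 was 7.50 in T1DM, 7.12 in T2DM, and 7.21 and 7.29 in CT. T2DM was the lowest of the 4 Ly6C-low libraries for Cyp51, and for Srebf2 by a narrow margin. In Ly6C-high MCs 11 of the 25 genes were below -1 and the median was -0.86.

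Genes that read glucose and hormone signals hardly differed between the models. None of 22 glucose transport and glycolysis genes and none of 14 leptin and insulin signalling genes passed 2-fold, with medians of 0.09 and 0.05. Most of them had a mean of at least 3, and of all 9476 such genes 5.87% were past 2-fold. Having none past the limit in lists of this size is close to that share. Lepr, whose mutation defines the db/db mouse, was 2.39 in T1DM and 2.23 in T2DM. The 2 CT values of Lepr were 0.74 and 4.23, so the replicate gap exceeded the difference between models, and a value summed over a gene does not show the db mutation. Socs3, the feedback inhibitor that leptin induces, was 5.08 and 5.33, and the insulin receptor gene Insr was 6.71 and 6.85.

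**Figure D2:**
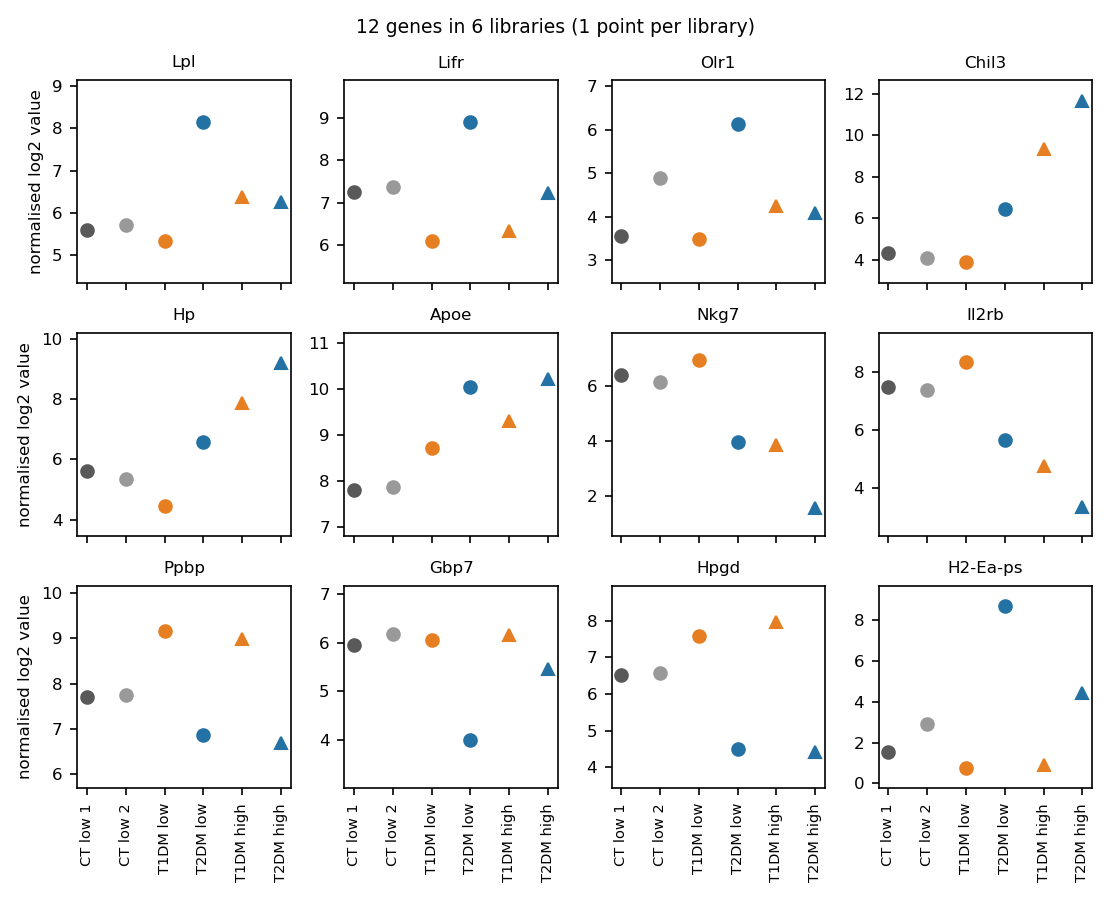
Normalised log2 value of 12 genes (y axis, own range per panel) in 6 libraries (x axis): 2 CT Ly6C-low, then T1DM and T2DM Ly6C-low (circles), then T1DM and T2DM Ly6C-high (triangles), with 1 point per library and no error bar. Lpl stands apart in T2DM Ly6C-low alone, while Hpgd and Ppbp separate the models in both subsets. Olr1 is also highest in T2DM Ly6C-low, but its CT values of 3.56 and 4.89 lie far apart.

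Of 32 listed receptors for cytokines and chemokines, 8 were above 1 and 3 below -1 in T2DM, with a median of 0.38. Over all genes 7.29% were above 1 and 7.97% below -1. The study names Lifr, Ccr6, Cxcr2, Il7r, Il3ra and Il1r2 as elevated in T2DM Ly6C-low MCs. The list was chosen with such results known, so its count is a description only. Lifr, the receptor chain for leukaemia inhibitory factor and its relatives, was 6.11 in T1DM, 8.90 in T2DM, and 7.25 and 7.37 in CT. The Lifr difference of 2.79 is 6.93-fold, and both CT values fell between those of the models. In Ly6C-high MCs Lifr was 6.34 in T1DM and 7.24 in T2DM. Ccr6, the receptor for the chemokine Ccl20, was 2.64 in T1DM, 4.68 in T2DM, and 3.36 and 3.14 in CT. Cxcr2, the neutrophil chemokine receptor, was 4.19 in T1DM and 5.78 in T2DM, with 3.96 and 3.63 in CT. Il7r (1.20), Ccr1 (1.45), Il1r1 (1.17), and the low Il3ra (1.80) and Il1r2 (2.12) made up the 8. The 3 lower genes were Il2rb, the receptor chain shared by interleukin 2 and 15, at 8.36 and 5.63, the homing receptor Ccr7 at 5.36 and 3.99, and the death receptor Fas at 3.21 and 1.83. Csf1r, the growth factor receptor on which these cells depend, was 9.83 and 9.64.

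Of 28 cytokine ligand genes, 7 were above 1 and 6 below -1, with a median of 0.17. Ccl5, a T and NK cell attractant, was 6.80 in T1DM, 3.89 in T2DM, and 6.51 and 6.57 in CT. Csf1, the growth factor for MCs, was 3.65 in T1DM, 4.93 in T2DM, and 2.60 and 2.33 in CT. Ccl3, an inflammatory chemokine, was 3.17 in T1DM, 4.63 in T2DM, and 3.21 and 3.45 in CT. Tnfsf12, the ligand TWEAK, was 3.65 in T1DM, 2.47 in T2DM, and 3.13 and 3.44 in CT. The other members past 2-fold had means under 3, among them Gdf15 (-0.72 and 1.60), Il6 (0.12 and 2.28), Ccl17 (0.33 and 2.02) and Cxcl2 (0.89 and -2.57). Differences within 2-fold included those of Il1b at 5.38 in T1DM and 5.97 in T2DM, Tnf at 3.95 and 4.10, Tgfb1 at 6.81 and 7.11, Ccl6 at 7.44 and 7.67 and Ccl9 at 7.27 and 7.53.

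Immune checkpoint genes, the co-stimulatory and inhibitory partners of T cells, differed little where they were well measured, as did most genes. Of 24 genes 3 were above 1 and 2 below -1, against 7.29% and 7.97% over all genes, and all 5 had mean values under 3. None of the 16 with a mean of at least 3 was past 2-fold. Of all 9476 such genes 5.87% were, so having none in a list of this size is close to that share. These were Cd276 (0.61 and 3.15), Tnfsf4 (-2.42 and -0.68), Nectin2 (-2.43 and -1.24), Icos (1.77 and 0.35) and Tigit (2.68 and 1.67). Cd274, which encodes the inhibitory ligand PD-L1, was 7.03 in T1DM, 7.55 in T2DM, and 6.92 and 6.98 in CT. Pdcd1lg2, which encodes PD-L2, was 4.06 in T1DM, 4.80 in T2DM, and 4.50 and 4.65 in CT. The co-stimulatory gene Cd86 was 4.91 and 4.93, and Sirpa, the receptor for the CD47 signal against engulfment, was 8.16 and 8.88.

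Of 11 genes of antigen presentation on MHC class II, 2 were below -1 and none above 1. Among the chains that present peptide, H2-Aa was 10.79 in T1DM and 11.13 in T2DM, H2-Ab1 was 10.30 and 10.11, and H2-Eb1 was 9.19 and 8.55. H2-Eb2, a further beta chain gene, was 3.55 in T1DM and 2.57 in T2DM, a difference of -0.98 just inside the limit. The invariant chain gene Cd74 was 12.14 and 12.36, and Ciita, which encodes the class II transactivator, was 6.83 and 7.10. Both genes below -1 encode chains of H2-O, the inhibitor of the peptide loader H2-DM. H2-Oa was 5.15 in T1DM, 3.47 in T2DM, and 4.19 and 4.18 in CT. H2-Ob was 7.61 in T1DM, 6.25 in T2DM, and 7.10 and 6.88 in CT. Both CT libraries lay between the models for H2-Oa and H2-Ob. These genes lie in the MHC region described below, and the part of B cell RNA in their Ly6C-low values was not tested. The loader gene H2-DMb2 was 0.66 higher in T2DM and its neighbour H2-DMb1 0.59 higher, but 36.4% and 31.4% of their sequences are shared, mostly with each other. The median of the 11 genes was -0.04 in Ly6C-low MCs. In Ly6C-high MCs it was -2.17, with 9 of 11 below -1, and H2-Aa there was 8.98 in T1DM and 7.00 in T2DM. Markers of other class II-bearing cells were lower in the same Ly6C-high pair, with 10 of 20 B cell genes and 5 of 10 dendritic cell genes below -1 and medians of -1.05 and -1.51, and their part in the class II values was not tested.

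Interferon-inducible GTPases, the guanylate-binding (Gbp) and immunity-related families that attack the vacuoles of intracellular microbes, were lower in T2DM. Of 15 measured, 9 were below -1, none above 1, and the median was -1.29. The CT mean was nearer to T1DM than to T2DM for all 15. Gbp7 was 6.05 in T1DM, 4.02 in T2DM, and 5.94 and 6.17 in CT, so T2DM stood apart from the other 3 libraries by about 4-fold. Ifi47 was 5.78 in T1DM, 3.78 in T2DM, and 5.07 and 5.51 in CT. Gbp2 was 5.51 in T1DM, 3.94 in T2DM, and 5.20 and 5.23 in CT. Gbp3 and Gbp4 had the same order, at differences of -1.41 and -1.27. Tgtp2 (-1.83) and Gbp8 (-1.62) were lower as well, but other genes, for Tgtp2 mainly Tgtp1, hold 90.5% and 31.1% of their 31-base runs. Irgm1, at -0.43, and the low Iigp1, at 0.18, were the least different of the family.

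Genes of the broader interferon response had a smaller shift, a median of -0.71 over 28 genes with 9 below -1 and none above 1. Rsad2, the antiviral enzyme viperin, was 7.49 in T1DM, 5.90 in T2DM, and 7.08 and 6.65 in CT. Oas3, which senses double-stranded RNA, was 5.43 in T1DM, 3.78 in T2DM, and 5.37 and 5.31 in CT. Other members were close, with Stat2 at 6.14 in T1DM and 6.50 in T2DM, Mx1 at 5.03 and 4.87, and Oas2 at 3.41 and 3.40. In Ly6C-high MCs the list was lower throughout, with 25 of 28 below -1 and a median of -2.44, and Oas2 was 6.97 in T1DM and 3.52 in T2DM there. Class I presentation genes, many of them also interferon targets, had a median of -0.27, with H2-Q7, H2-K1 and H2-Q6 below -1 out of 18. B2m, the shared light chain of class I, was 11.51 in T1DM and 10.78 in T2DM.

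The promoters of 6 of these lower genes are shown because they share a motif to which interferon regulatory factors bind, GAAANNGAAA. RefSeq start sites on build GRCm38.p6 were used, and the 250 bases before each start were searched on both strands. Each run reads 5′ to 3′ on the strand of the gene, and capitals mark the motif or its reverse complement. In order the runs are chr3:142530243-142530332 (plus strand), chr3:142620564-142620653 (plus), chr3:142559959-142560043 (plus), chr11:49064233-49064322 (minus), chr5:120777685-120777774 (minus) and chr12:26456523-26456612 (minus).
Gbp7: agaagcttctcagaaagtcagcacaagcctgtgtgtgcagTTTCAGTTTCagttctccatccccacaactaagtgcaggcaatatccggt
Gbp2: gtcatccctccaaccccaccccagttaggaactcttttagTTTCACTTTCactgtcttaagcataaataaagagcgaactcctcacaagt
Gbp3: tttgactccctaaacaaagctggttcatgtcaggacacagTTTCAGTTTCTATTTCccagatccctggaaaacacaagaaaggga
Tgtp2: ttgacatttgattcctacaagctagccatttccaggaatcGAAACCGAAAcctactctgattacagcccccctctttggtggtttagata
Oas3: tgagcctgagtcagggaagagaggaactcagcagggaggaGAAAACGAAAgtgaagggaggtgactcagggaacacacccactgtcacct
Rsad2: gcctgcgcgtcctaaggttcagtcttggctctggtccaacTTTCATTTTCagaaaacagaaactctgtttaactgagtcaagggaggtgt

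The motif was in the window of 9 of the 10 GTPase genes that have a promoter entry and of 9 of 19 genes of the broader list, against 936 of all 27025 genes (3.46%). In Gbp3 a pair of overlapping matches gives the longer run of capitals. Among genes of both interferon lists, it occurred in 9 of 13 that were below -1 and in 9 of 16 that were not. It was in 2 of 13 NK cell gene promoters, 1 of 15 platelet and 0 of 17 neutrophil gene promoters. A match in this window is a description of sequence and not of binding.

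**Figure D3:**
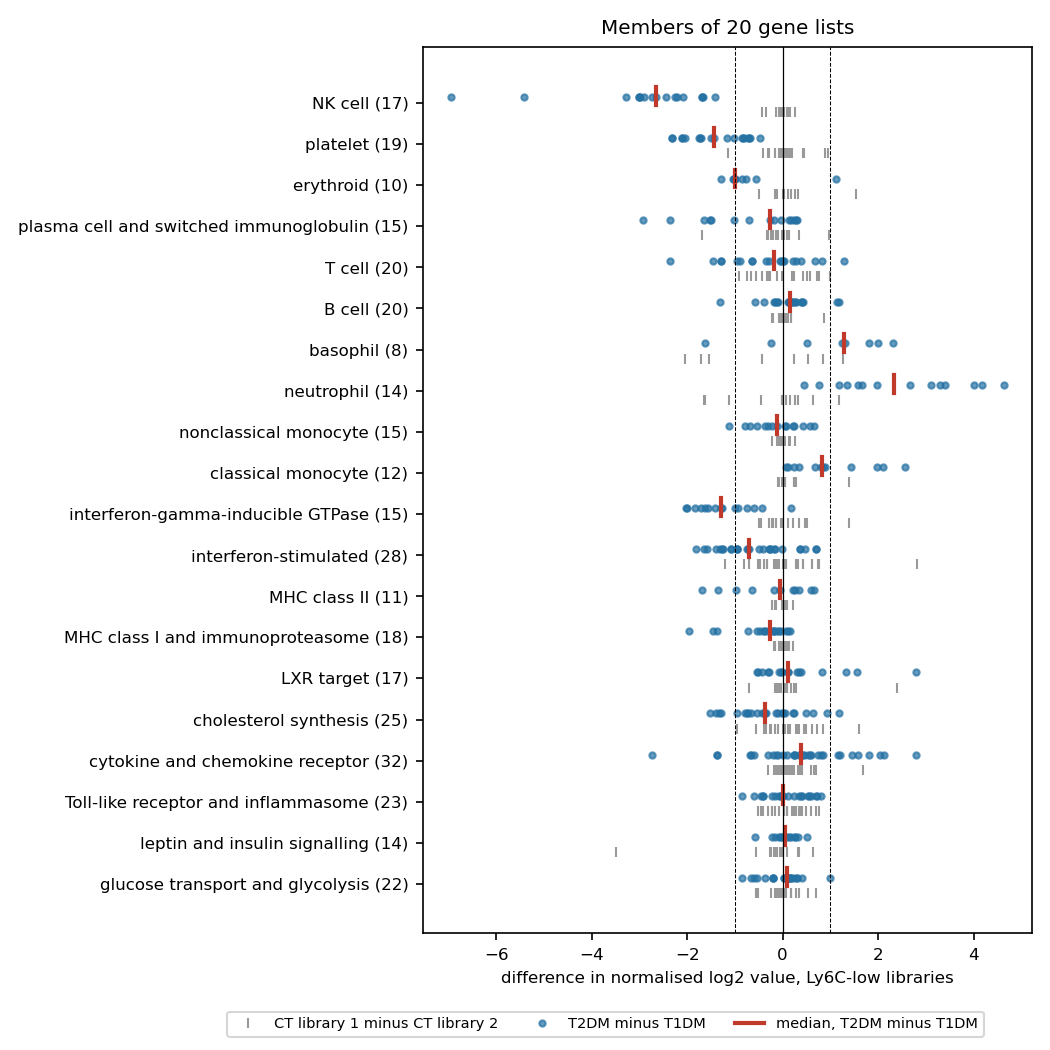
Difference in normalised log2 value (x axis) for each measured member of 20 gene lists (y axis, number of members in brackets) between Ly6C-low libraries: T2DM minus T1DM (circles) with its median (red bar), and CT library 1 minus CT library 2 (grey ticks). Dashed lines mark 2-fold. The NK cell median is -2.66 and the neutrophil median 2.33, while the lists of glycolysis and of leptin and insulin signalling stay inside the dashed lines in T2DM minus T1DM.

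Genes of natural killer (NK) cells were lower in the T2DM library without exception. All 17 listed genes were below -1 and the median was -2.66, while over all genes 7.97% were below -1. Nkg7, a protein of cytotoxic granules, was 6.96 in T1DM, 3.96 in T2DM, and 6.43 and 6.16 in CT. Prf1 (perforin), which opens the target cell membrane, was 6.15 in T1DM, 3.14 in T2DM, and 5.89 and 5.79 in CT. Ncr1 (NKp46), the receptor that defines the lineage, was 6.70 in T1DM, 4.45 in T2DM, and 6.13 and 6.14 in CT. For Nkg7, Prf1 and Ncr1 the T2DM library was the low one and the other 3 were within 1 log2 unit of each other. Gzma and Gzmb, the granzymes, were lower by differences of -2.08 and -2.98, Klrb1c (NK1.1) by -3.28, and the transcription factor genes Eomes and Tbx21 by -2.45 and -2.22. Summed over the list on the linear scale the level was 1657 in T1DM and 302 in T2DM, 5.49-fold lower, with 1133 and 1126 in CT. No listed gene was at the bottom of the scale in both models.

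NK genes were 15 of 17 below -1 in the Ly6C-high libraries too, with a median of -2.21. Outside the list, Stat4 and the receptor gene Klri2, which these lymphocytes also express, were among the 103 lower genes, at -1.91 and -2.45. The listed gene Txk was at -1.69. Whether fewer NK cells fell in the gate or each held less RNA cannot be told apart in pooled bulk RNA, and the stated gate of CD11b+Ly6G- names no NK cell marker. The part of NK cell RNA in the lower Ccl5, Il2rb and Itga2 was not tested. The widest NK differences were of Klra8 (5.59 and -1.37) and Klra4 (5.31 and -0.11), named here after their values were seen. They belong to the Ly49 receptor cluster on chromosome 6, whose gene content varies between inbred mouse strains. Klra8 shares 55.0% of its sequences with other genes.

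Platelet genes were lower in T2DM as well. All 19 had a negative difference, 12 of them below -1, with a median of -1.43. Ppbp, a chemokine of platelet granules, was 9.17 in T1DM, 6.86 in T2DM, and 7.70 and 7.75 in CT. Alox12, the platelet lipoxygenase, was 7.89 in T1DM, 5.77 in T2DM, and 6.81 and 6.89 in CT. Itgb3, the fibrinogen receptor beta chain, was 7.56 in T1DM, 5.86 in T2DM, and 6.81 and 6.70 in CT. In these 3 genes the CT libraries lay between the models, T1DM above and T2DM below. Pf4 (-0.81) and Itga2b (-0.72), which define platelets and their precursors, were within 2-fold. The summed level was 1860 in T1DM and 634 in T2DM, and 980 and 957 in CT. The Ly6C-high libraries had 15 of 19 genes below -1 and a median of -1.56. Itga2, the collagen receptor chain of platelets and NK cells, was 6.50 in T1DM, 3.73 in T2DM, and 6.00 and 6.03 in CT.

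Most red cell genes, and some immunoglobulin genes, were also lower in T2DM. Of 10 erythroid genes, 5 were below -1 and 1 was above 1, and 9 of 10 differences were negative. Alas2, the first enzyme of heme synthesis, was 9.18 in T1DM and 8.17 in T2DM, and the globin gene Hbb-bs 13.93 and 13.08. The differences of Hbb-bt (-1.02) and Hba-a1 (-1.03) lay at the 2-fold limit and inside it after quantile normalization or with equal linear sums. Of 15 plasma cell and switched immunoglobulin genes 6 were below -1, none was above 1 and 5 were positive, with a median of -0.26. The members near 0 included Mzb1 (0.24), Xbp1 (0.18) and Ighg3 (-0.02). Ighg2b was 6.47 in T1DM, 4.12 in T2DM, and 4.65 and 4.32 in CT, and Igha was 10.21, 8.71, 8.06 and 8.25 in the same order. T1DM was the library that stood apart for Ighg2b, Igha and Jchain (7.28, 5.75, 5.62 and 5.73). B cell genes had a median of 0.16 over 20, and Cd79a differed by 0.43. The B cell members past the limit were Fcmr (-1.32), Cd22 (1.13) and the low Vpreb3 (1.18). T cell genes had a median of -0.17 over 20, and Cd28 (-2.35) and Lck (-1.29) were the members past the limit with a mean of at least 3.

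Neutrophil and basophil genes were higher in T2DM, from low values, but eosinophil genes as a list were not. Of 4 eosinophil genes, 1 was above 1 (the low Siglecf) and 2 were negative. Their summed level was 80.4 in T1DM and 78.2 in T2DM. Of 14 neutrophil genes 12 were above 1, none below -1, and the median was 2.33. S100a9 and S100a8, the calprotectin subunits, were 0.04 and -0.30 in T1DM, 4.68 and 3.88 in T2DM, and between 1.61 and 2.44 in CT. Lcn2 was 0.09 in T1DM and 3.50 in T2DM, and the granule genes Ngp (0.20 and 3.49) and Ltf (-2.24 and 1.76) had the same direction. Only Csf3r (0.46) and Cxcr2 (1.59) had a mean of at least 3, so the list's median rests on low values, where 2-fold gaps between CT replicates are common. The summed level was 168 in T1DM and 342 in T2DM, and 175 and 164 in CT. Of 8 basophil genes 5 were above 1 and 1 below -1, with a median of 1.28. Ms4a2, the beta chain of the IgE receptor, was 2.60 in T1DM, 4.92 in T2DM, and 2.38 and 1.84 in CT, and the transcription factor gene Gata2 was 3.41, 5.41, 0.81 and 2.52. Cxcr2, Il3ra and Il6, which granulocytes can also express, are among the receptors and ligands above, and the part of such cells in their values was not tested. The sort was for Ly6G- cells, a gate that removes neutrophils, and the deposited values hold no entry named Ly6g.

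The MHC region on chromosome 17 held some of the largest differences in the data. H2-Ea-ps, the E alpha chain gene (chr17:34341959-34344645), was 0.75 in T1DM, 8.70 in T2DM, and 1.54 and 2.93 in CT. It was 0.92 in T1DM and 4.41 in T2DM in Ly6C-high MCs. The gene is annotated as a polymorphic pseudogene because C57BL/6 mice carry a defective copy, while strains of other haplotypes make the protein. Of the 109 genes within 2 Mb of the H2-Ab1 start with a mean of at least 3, 5 were higher and 9 lower, 12.8%, while the share over all 9476 genes with such a mean was 5.87%. In 12 of these 14 the Ly6C-high difference had the same sign.

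Neighbouring class I genes differed in opposite directions. H2-K1, a main class I heavy chain, was 10.48 in T1DM, 9.01 in T2DM, and 10.03 and 10.05 in CT, whereas the adjacent pseudogene H2-K2 was 3.64 in T1DM, 6.63 in T2DM, and 4.18 and 4.67 in CT. H2-Q7 was 8.79 in T1DM, 6.83 in T2DM, and 8.25 and 8.14 in CT. Other genes hold 22.8% of the 31-base sequences of H2-K1, 16.6% of those of H2-K2 and 39.1% of those of H2-Q7, and H2-D1, whose product is the other main class I chain, was 10.52 and 10.12. The ribosomal protein gene Rps18, which lies in the same window, was 8.09 in T1DM, 5.35 in T2DM, and 7.90 and 7.87 in CT. Glo1, which detoxifies methylglyoxal from glycolysis and lies further up the same chromosome, was 5.14 in T1DM, 6.88 in T2DM, and 6.03 and 5.95 in CT.

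**Figure D4:**
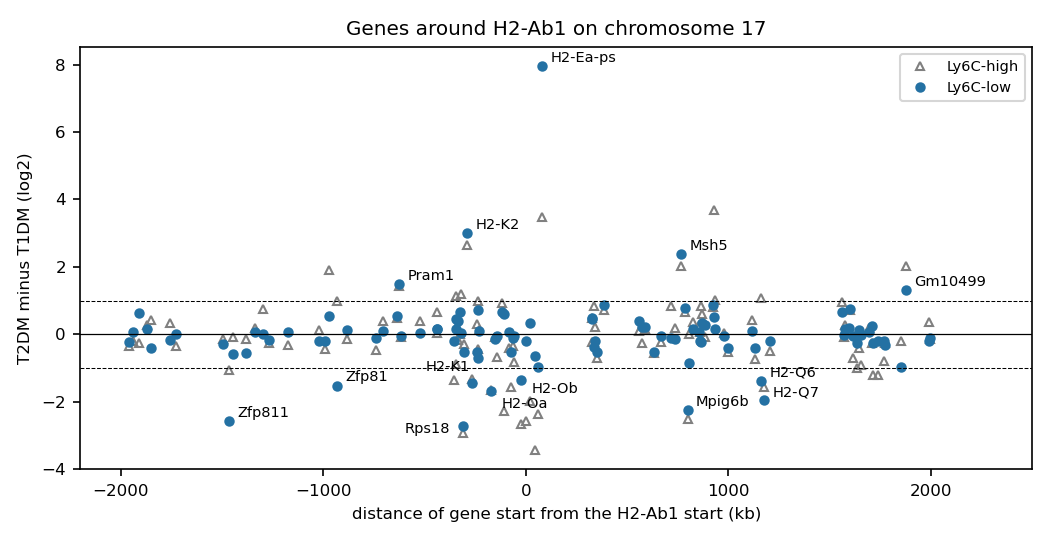
Difference T2DM minus T1DM in normalised log2 value (y axis) for the 109 genes with a mean of at least 3 whose start lies within 2 Mb of the H2-Ab1 start (x axis, distance in kb), in Ly6C-low (filled circles) and Ly6C-high (open triangles) libraries. Names mark the 14 genes past 2-fold in Ly6C-low MCs, with H2-Ea-ps at 7.95.

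Chromosome 17 as a whole had 10 higher and 11 lower genes among 258 with a mean of at least 5, or 8.14%, and the share over all chromosomes was 2.79%. Chromosome 6 followed at 4.46%, and chromosome 16 had none among 166. Outside the MHC region, the higher genes of chromosome 17 included Pla2g7 and Pkd1. Pla2g7, which breaks down platelet-activating factor, was 5.92 in T1DM, 7.72 in T2DM, and 6.55 and 6.64 in CT. Pkd1, the polycystin gene, was 5.58 in T1DM, 7.41 in T2DM, and 6.21 and 6.44 in CT. Of the 30 genes ranked highest and lowest, 7 were on chromosome 17.

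Of the same 30 genes, 6 were pseudogenes, among them the pair with the highest differences. Tpm3-rs7 was 3.30 in T1DM, 8.37 in T2DM, and 5.21 and 5.36 in CT, and 78.6% of its sequence occurs in the tropomyosin gene Tpm3. Rps2-ps10 was 3.20 in T1DM, 6.99 in T2DM, and 4.98 and 5.01 in CT, and 97.2% of it is shared. Gm10240 and Gm13370 had identical values in every library, 4.83 in T1DM and 7.19 in T2DM, and share all of their sequence with each other. Of 95 pseudogenes with a mean of at least 3, 15.8% were past 2-fold, while the share was 5.62% of 9139 protein-coding genes. Nnt, which carries a deletion in the C57BL/6J substrain, was 4.61 in T1DM, 5.19 in T2DM, and 4.97 and 5.10 in CT. The Y-linked genes were measured in both models, with Ddx3y at 6.30 and 5.40, Kdm5d at 7.41 and 6.64, Eif2s3y at 5.93 and 5.55, and Uty at 5.03 and 4.79. All 4 were lower in the CT libraries, where Ddx3y was 3.37 and 3.64 although CT mice are labelled male.

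Among genes with means of 5 or more, the lowest difference was that of Hpgd, the enzyme that inactivates prostaglandins. It was 7.59 in T1DM, 4.51 in T2DM, and 6.53 and 6.56 in CT, an 8.45-fold difference. The Ly6C-high values were 7.96 in T1DM and 4.42 in T2DM, so Hpgd separated the models by 3 log2 units or more in both subsets, and none of its 31-base sequences occurs in another gene. Ptgs1, the constitutive cyclooxygenase, was 5.03 in T1DM, 3.31 in T2DM, and 4.47 and 4.45 in CT. Over 16 eicosanoid genes 3 were above 1, 4 were below -1, and the median was 0.22. Alox5ap, the helper of leukotriene synthesis, was 7.43 and 8.04.

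Macrophage genes were not a uniform group. C1qb, C1qc, C1qa, Timd4 and Axl were below -1 and none of 11 was above 1, with a median of -0.53. Of these lower genes only C1qb had a mean of at least 3. C1qb, a subunit of the first complement component, was 4.38 in T1DM, 2.71 in T2DM, and 2.81 and 2.68 in CT, so T1DM was the high library. Adgre1, which encodes the F4/80 antigen, was 7.08 and 7.41, and Mrc1, the mannose receptor, was 5.59 and 5.86. Only Adgre1 and Mrc1 had a mean of at least 5, and their median was 0.30, the opposite sign.

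Most differences of well-measured genes had the same direction in both sorted subsets of the same mouse pools. Of the 41 higher genes with a mean of at least 5, 37 had a positive Ly6C-high difference and 21 were above 1 there. Of the 103 lower genes, 95 had a negative one and 61 were below -1. Across these 5160 genes Pearson's r between the differences was 0.47, and across all genes 0.31, given as a description since genes share libraries. The CT libraries lay between the models in 124 of the 144 genes past 2-fold (86.1%), and in 1421 of all 2516 genes past 2-fold. Both sets were picked for a wide gap between the models, inside which another value falls readily. The counts are therefore a description only. The CT libraries came from another sequencer than the diabetic libraries, so sequencer and group cannot be told apart where CT is set beside a model.

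**Figure D5:**
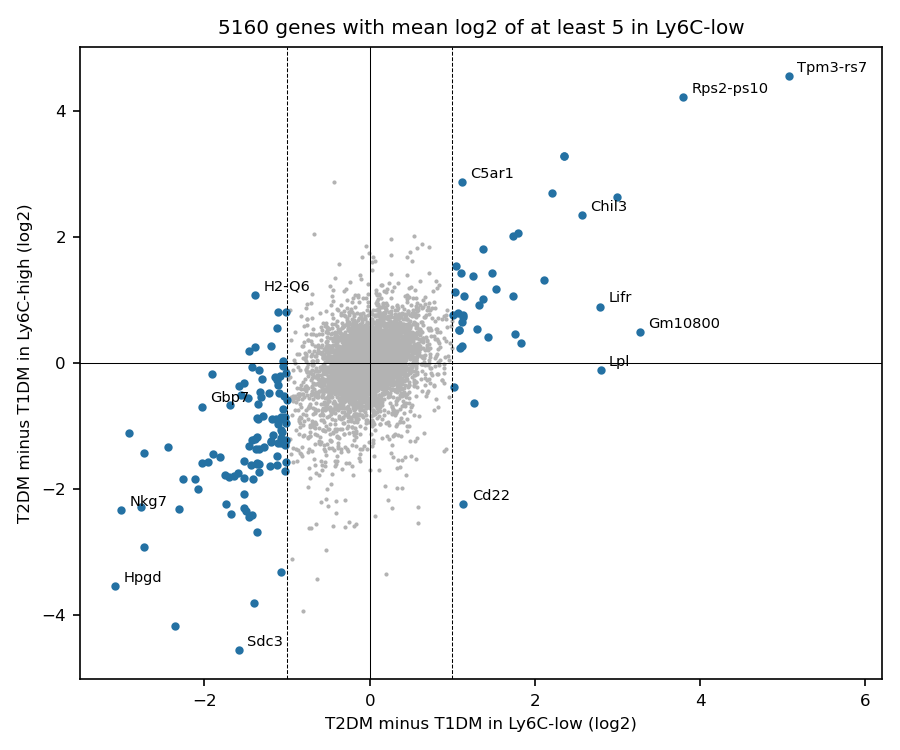
Difference T2DM minus T1DM in Ly6C-low MCs (x axis, log2) and in Ly6C-high MCs (y axis, log2) for the 5160 genes whose mean over both Ly6C-low libraries was 5 or more. Blue points are the 144 genes past 2-fold in Ly6C-low MCs, of which Cd22 and H2-Q6 are past 2-fold in the opposite direction in Ly6C-high MCs, and Lpl is near 0 there.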

How the data were processed

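RNA-Seq of sorted blood MCs was analysed for the T1DM and T2DM Ly6C-low libraries, with the CT Ly6C-low and the diabetic Ly6C-high libraries beside them. The authors used Kallisto 0.45 for quantification, tximport 1.12.3 for gene summaries and R 3.6.1, with mm10, per the submitters' notes, and deposited normalised log2 values of 16486 genes. How the log2 values were scaled, filtered and adjusted between sequencers was not given in the sources used here. Counts were not used here, so the depth behind a value is unknown. Linear values sum to between 838696 and 1090019 per library.

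T2DM minus T1DM was computed on the deposited log2 values without further scaling, with a size limit of 2-fold and no test. Python 3.11.15 was used with numpy 2.4.6 and pandas 2.3.3. The counting was first run on a simulated library without noise, which checks the code and not the counts under noise. Plots used matplotlib 3.10.9. Members and the 51 gene lists were chosen with earlier results of these data known. Genes named are the 15 highest and 15 lowest past 2-fold whose mean log2 value was 5 or more, up to 4 members per list with the largest difference at a mean of at least 3, list-defining genes, Ly6c2, Ly6c1, Lepr, strain and Y-linked genes, and genes the study names for Ly6C-low MCs. Further genes were named after their values were seen. A few others that the rule selects are not reported here. In 21 entries a spreadsheet had turned the symbol into a date, and these were counted but not named. Positions came from RefSeq (15718 genes) or GENCODE M21 (674 more), both on GRCm38. Shared 31-base sequences were counted over GENCODE M21 transcripts. Alternatives were filters on low values, adding 1 on the linear scale, quantile normalization, equal linear sums, median centring, a 4-fold limit, and a difference above that of the CT replicates.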

Additional observations from a re-analysis of the deposited data

Results flagged for a closer look

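Some genes selected by the naming rule were past 2-fold in one direction in Ly6C-low MCs and past 2-fold in the other in Ly6C-high MCs, T2DM minus T1DM. With 1 library per model and subset, the difference between the subsets was not tested. Higher in T2DM Ly6C-low but lower in T2DM Ly6C-high MCs were Csf1 (1.27 and -2.92), the histamine-forming enzyme gene Hdc (1.24 and -2.92), the sterol reductase gene Hsd17b7 (1.18 and -2.43), the B cell lectin gene Cd22 (1.13 and -2.24) and the lysosomal membrane gene Cd63 (1.11 and -1.18). The reverse held for the class I gene H2-Q6 (-1.38 and 1.09), which shares 50.3% of its 31-base sequences with other genes, and for the protease gene Mmp19 (-1.56 and 1.16). Of these 7 genes, Cd22 and H2-Q6 had means of 5 or more in Ly6C-low MCs. Genes named after their values were seen, all with means under 3, had such opposite differences too, namely Ltf (4.00 and -2.29), Cd276 (2.55 and -3.81), C1qa (-1.35 and 1.83) and C1qc (-2.05 and 1.10).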

How the results depend on the processing

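The counts depend on how low values are treated and on the size limit. Against 1202 higher and 1314 lower genes, keeping genes with means of 1 or more over 8 libraries left 521 and 628, a mean of at least 5 over the 2 libraries 41 and 103, adding 1 on the linear scale 581 and 722, and a 4-fold limit 340 and 331. Quantile normalization, equal linear sums, median centring and the limit set by the CT replicates kept both counts within 1.5 times. The median difference over all genes, 0.00027, was 0.0026 and -0.028 under these filters, 0.00023 with 1 added, 0.014 after quantile normalization, 0.050 with equal linear sums and 0.028 after centring. Of the 106 named genes past 2-fold, none changed sign under any alternative, and 102 stayed past 2-fold with 1 added, where Il1r2, Tnfsf4, Cd63 and Cxcl10 did not. Of the 13 lists with a median past 0.5, the macrophage list changed sign, to 0.30, at a mean of at least 5, from Adgre1 and Mrc1 alone. The neutrophil median was 0.46 there, from Csf3r alone.

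No paired analysis was possible because each model has 1 library, and leaving out a library was not possible for the same reason. The methods of the study describe sequencing in duplicate, but second libraries of the diabetic groups were not analysed here. The CT replicate gap is the only measure of spread, and it comes from pooled RNA on another sequencer.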

Other observations

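Innate sensing and housekeeping genes differed little, as did most well-measured genes. Of all 9476 genes with a mean of at least 3, which most members of these lists reached, 5.87% were past 2-fold. Having none past the limit in short lists is close to that share. None of 23 Toll-like receptor and inflammasome genes, 5 Fc gamma receptor genes, 6 NADPH oxidase genes or 17 chromatin enzyme genes passed 2-fold, with medians of 0.01, 0.01, 0.13 and -0.11. Of 78 respiratory chain genes 1 was above 1, and of 86 cytosolic ribosomal protein genes 1 was above 1 and 2, Rps18 and Rpl3, were below -1. Rpl3 was 8.98 in T1DM, 7.60 in T2DM, and 8.95 and 8.94 in CT, and its Ly6C-high difference of -1.37 was close to that of -1.38 in Ly6C-low MCs.

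Of 24 immediate-early genes 1 was above 1 and 4 were below -1, all with mean values under 3, while Fos differed by 0.79. C5ar1, the receptor for the complement fragment C5a, was 4.92 in T1DM, 6.04 in T2DM, and 5.63 and 5.65 in CT, and in Ly6C-high MCs it was 4.35 and 7.22. Among 17 adhesion genes Itgax and Itga6 (-1.34) were below -1 and none was above 1. Emp1, a membrane protein of the matrix and protease list, was 2.47 in T1DM, 4.93 in T2DM, and 3.27 and 2.29 in CT, with 3.03 and 8.05 in Ly6C-high MCs.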
